A study of Rattus rattus with 6 samples.

Results

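The 3 muscle actin genes Actc1, Acta1 and Acta2 were described in the left ventricle of young and old rats. They were chosen by their Ensembl rat identifiers (ENSRNOG00000008536, ENSRNOG00000017786 and ENSRNOG00000058039), with symbols as the selection gave them, and all 3 were found among the 23976 genes of the deposited table. Left ventricles were taken from 6 male Wistar-Kyoto rats of wild type genotype, an inbred strain used as the normotensive counterpart of the spontaneously hypertensive rat. The 3 young adults were 3 months old and the 3 old adults 24 months old, ageing was natural, and each library came from 1 animal. Ribosomal RNA was depleted from total RNA before sequencing.

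Actins are the globular proteins that polymerize into the thin filaments of muscle, along which myosin pulls. Actc1 encodes cardiac alpha actin, the main actin of the adult cardiomyocyte sarcomere, Acta1 encodes skeletal alpha actin, and Acta2 encodes smooth muscle alpha actin. Acta1 and Acta2 are transcribed in the developing heart, and Acta1 is a classical member of the fetal program that is re-expressed when the ventricle is overloaded. In the adult ventricle, Acta2 marks the smooth muscle of coronary vessels and, after injury, myofibroblasts. The isoforms are separate genes, not splice forms, and their proteins are near-identical. How reads that could come from more than 1 of them were assigned was not given in the sources used here, and any such reads make the values of Acta1 and Acta2 beside the abundant Actc1 uncertain.

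The table gave TPM, a transcript abundance divided by transcript length and brought to the same sum in every library, so the 3 genes can be compared with one another but read depth is unknown. Values were read on the deposited scale and on a rescaled one, in which the 15 genes with a mean of 1000 TPM or more were left out and the others were brought to a sum of 1000000 per library. None of the 3 actins was among those 15. The genes kept held 6.39%, 10.6% and 10.5% of TPM in the young libraries and 5.84%, 6.05% and 5.08% in the old ones, and every deposited value of an actin moves with that part. The table pairs no identifier with a symbol, and 0 of its identifiers occurred in the gene table used here. Markers of cardiomyocytes, vascular cells, fibroblasts and skeletal muscle could therefore not be read, and the labelled tissue was not checked against them. In bulk tissue, fewer cells of a type and less RNA per cell cannot be told apart.

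Actc1 was the most abundant of the 3 genes in every library, at 3.53-fold different levels between the highest and the lowest library on the deposited scale. It stood at 194, 338 and 335 TPM in young replicates 1, 2 and 3, and at 158, 215 and 95.7 TPM in the old libraries OH1, OH2 and OH5. Young replicate 1 lay below OH2, so the groups overlapped. The young mean was 289 ± 82.3 TPM and the old mean 156 ± 59.6 TPM (SD, n = 3), 1.85-fold higher in young. On this scale Actc1 fell with age, with a log2 fold change of -0.91 ± 0.36 (SE) at an adjusted p of 0.0351 (limma-trend on log2(TPM + 1), Benjamini-Hochberg over all tested genes). This call was lost in 12 of 14 alternative limma fits, among them a pseudocount of 10 (adjusted p 0.210) and a filter at 10 TPM (0.0637).

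After rescaling, the young libraries came together at 3034, 3173 and 3182 TPM, whereas the old ones spread over 2700, 3556 and 1883 TPM. The lowest and the highest library were both old. The means were 3129 ± 83.1 TPM in young and 2713 ± 837 TPM in old, and the log2 fold change was -0.25 ± 0.26 with a limma adjusted p of 0.600. The 95% interval of that fit ran from 0.556-fold to 1.27-fold of the young level, and changes within that range are not excluded. The SD of log2 values within young was 0.0386 for Actc1, below that of all but 3.50% of tested genes, and the SD within old was 0.460, above that of 96.2% of them. Over all tested genes the median SD was 0.179 in young and 0.130 in old. The difference in spread between the ages was not tested.

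Acta1, the skeletal and fetal-program isoform, was at 13.8, 18.7 and 23.8 TPM in the young libraries and at 15.5, 6.41 and 4.80 TPM in OH1, OH2 and OH5. OH2 and OH5 lay below every young library, whereas OH1 lay between young replicates 1 and 2. The young mean was 18.8 ± 5.01 TPM and the old mean 8.91 ± 5.77 TPM (SD, n = 3), 2.11-fold higher in young. On the deposited scale Acta1 fell with age, its log2 fold change being -1.12 ± 0.31 (limma adjusted p 0.00681), a call lost in 8 of 14 alternative limma fits.

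After rescaling, Acta1 was at 216, 175 and 226 TPM in young and at 266, 106 and 94.5 TPM in old. The old libraries again stood at both ends, with OH1 above and OH2 and OH5 below all young libraries. Such a pattern, with the lowest and the highest library both old, was seen in 7.95% of all tested genes, and both Acta1 and Actc1 had it. Genes whose groups did not overlap, 29.7% of those tested, cannot have this pattern, and it was not tested. The log2 fold change of Acta1 was -0.56 ± 0.35 with a limma adjusted p of 0.379, and the 95% interval ran from 0.390-fold to 1.18-fold of the young level. Without OH1 it was -1.02 with an adjusted p of 0.0475, a fit that called 0.706% of all genes. Without OH2 it was -0.37 (adjusted p 0.675), without OH5 -0.28 (0.693), and with the column-name suffix added to the model -0.27 (0.597). In abundance order among the genes kept, Acta1 ranked 759, 1050 and 738 in the young libraries and 543, 1995 and 2318 in OH1, OH2 and OH5. The mean of Acta1 was thus lower in old ventricle, and the fold change remained below 0 whichever single library was left out, while 1 old library had the highest value of all 6 after rescaling.

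Acta2, the smooth muscle isoform, was at 13.1, 21.8 and 39.8 TPM in young and at 20.8, 19.1 and 11.5 TPM in old. Young replicate 3 stood far above the other libraries, and the groups overlapped. The young mean was 24.9 ± 13.6 TPM and the old mean 17.1 ± 4.93 TPM (SD, n = 3). The log2 fold change of -0.42 ± 0.33 did not pass the threshold on the deposited scale (limma adjusted p 0.243). Without young replicate 1 it was -0.79 with a limma adjusted p of 0.0167, in a fit that called 93.2% of all genes.

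After rescaling, Acta2 was at 205, 204 and 378 TPM in young and at 356, 316 and 227 TPM in old. All 3 old values lay above those of young replicates 1 and 2 and below that of young replicate 3. The young mean was then 262 ± 100.3 TPM and the old mean 300 ± 66.2 TPM, and the log2 fold change was 0.23 ± 0.27 with a limma adjusted p of 0.647. Its 95% interval ran from 0.768-fold to 1.79-fold of the young level. The sign of the Acta2 difference therefore depended on the scaling, being below 0 as deposited and above 0 after rescaling, and neither value passed the test. The SD of its log2 values exceeded that of 95% of tested genes within young (0.510) and that of 90.7% of them within old (0.336).

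**Figure D1:**
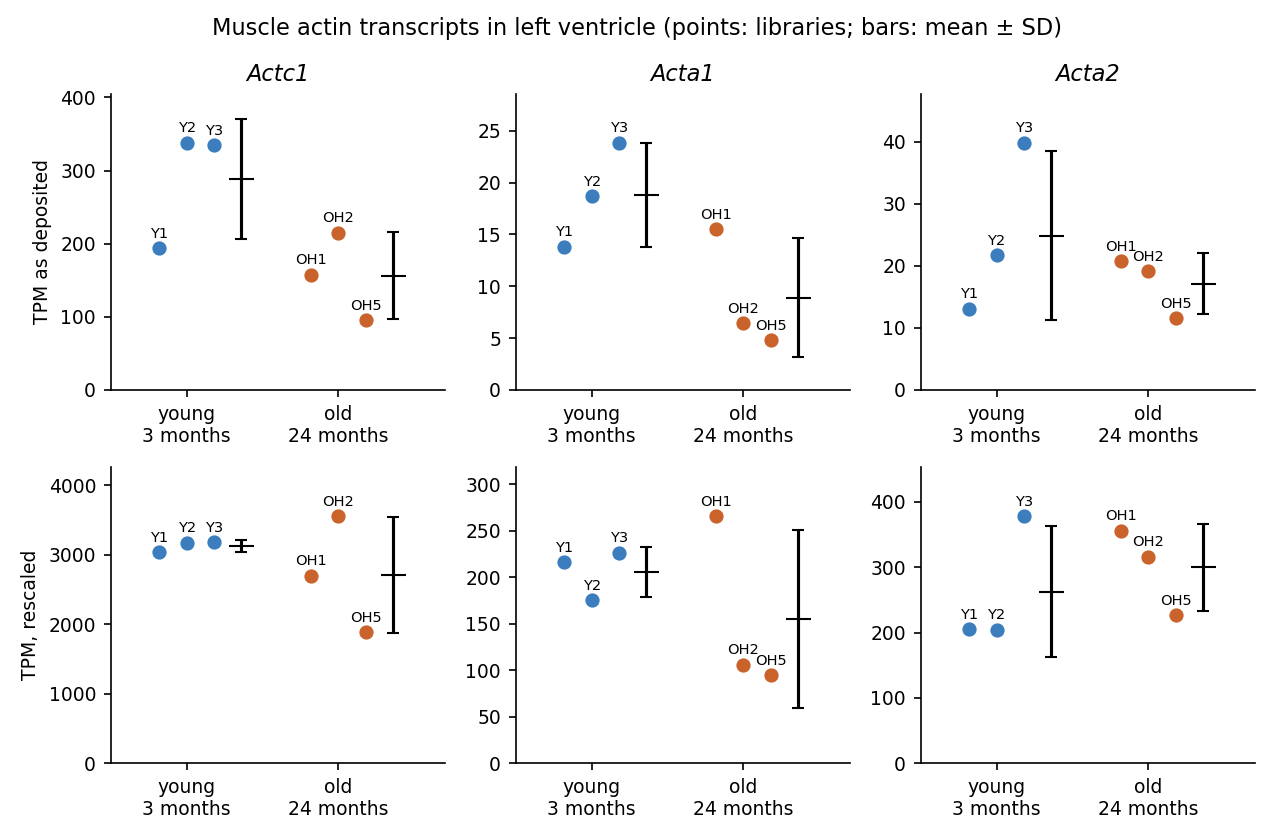
TPM of Actc1, Acta1 and Acta2 in each library, as deposited (upper row) and rescaled without the 15 most abundant genes (lower row). Points are libraries (Y1 to Y3, young replicates 1 to 3; OH1, OH2 and OH5, old), and bars are the mean ± SD of 3 libraries; after rescaling, the young Actc1 values sit between 3034 and 3182 while the old values reach from 1883 to 3556.

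Of the 3 actins, 2 (Actc1 and Acta1) were lower in old ventricle at the threshold on the deposited scale, where 46.8% of all 9502 tested genes were called lower. None of the 3 was called after rescaling, where 6.07% of 9487 genes were called. Groups that did not overlap were seen for 0 of the 3 actins on either scale, against 55% of all tested genes as deposited and 29.7% after rescaling. The median log2 fold change of all genes was -0.53 on the deposited scale, so the calls of Actc1 and Acta1 there stand among many. Relative to this median, Actc1 lay at -0.38, Acta1 at -0.58 and Acta2 at 0.12. After rescaling, the median of all genes was -0.04, and the 3 actins lay at -0.22, -0.52 and 0.27 from it. The fold change of Acta1 was lower than that of all but 2.48% of genes as deposited and all but 4.88% after rescaling. That of Actc1 stood at the percentile 7.78 as deposited and 21.3 after rescaling, and that of Acta2 at 70.1 and 82.4. Acta1 thus stood nearest the lower end of all genes on both scales with all libraries. This order did not hold without OH2, where Actc1 lay below Acta1 (percentiles 2.30 and 6.72 as deposited, 7.25 and 12.5 after rescaling). On the deposited scale it also did not hold with a pseudocount of 10 (0.726 and 3.24) or with the column-name suffix added to the model (7.18 and 9.50). Without OH5, Acta1 stood at the percentile 19.1 after rescaling.

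**Figure D2:**
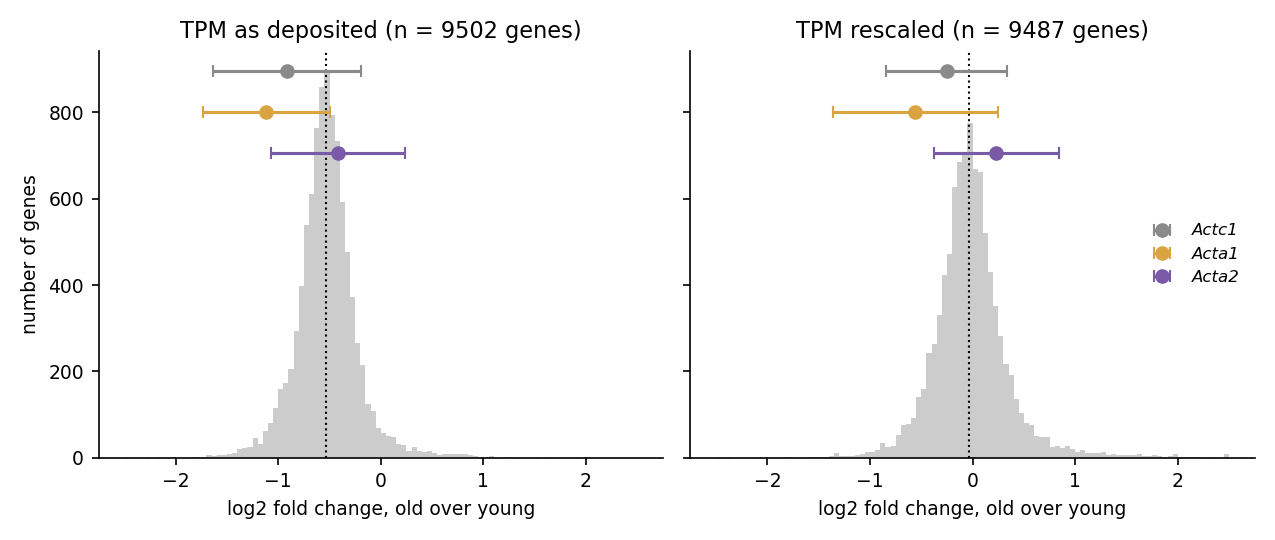
Distribution of the log2 fold change (old over young) over all tested genes, as deposited and rescaled, with the number of genes on the vertical axis. Dotted lines are the medians (-0.53 and -0.04), values beyond the axis are held in the end bars, and points with bars are the 3 actins with their 95% intervals, placed at arbitrary heights; the bars of all 3 actins cross 0 after rescaling.

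The deposited-scale calls also depended on single libraries and on the weight of a shared spread. The prior degrees of freedom of limma were 91.8 on that scale and 4.22 after rescaling, so that the deposited-scale p values rest little on the spread of the actins themselves. The exact two-sided permutation test on each gene's own log2 values, which cannot give less than 0.1 with 3 against 3 libraries, gave p = 0.2 for Actc1, 0.2 for Acta1 and 0.4 for Acta2 as deposited, and 0.4, 0.4 and 0.6 after rescaling. Actc1 passed the limma threshold in 1 of the 6 fits that left out a library on the deposited scale (the one without young replicate 1, adjusted p 0.00253), with log2 fold changes from -1.18 without OH2 to -0.60 without OH5. Acta1 passed it in 3 of these 6 fits and missed it without young replicate 3, OH2 or OH5. Its log2 fold changes ran from -1.56 without OH1 to -0.81 without OH5. Calls over all 9502 tested genes moved as well. The fit without young replicate 1 called 93.2% of them. The other fits that left out a library called 388 to 838 genes, against 4533 with all libraries. In the rescaled comparison the fold change of Actc1 shrank to -0.01 without OH5, whose value was the lowest.

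**Figure D3:**
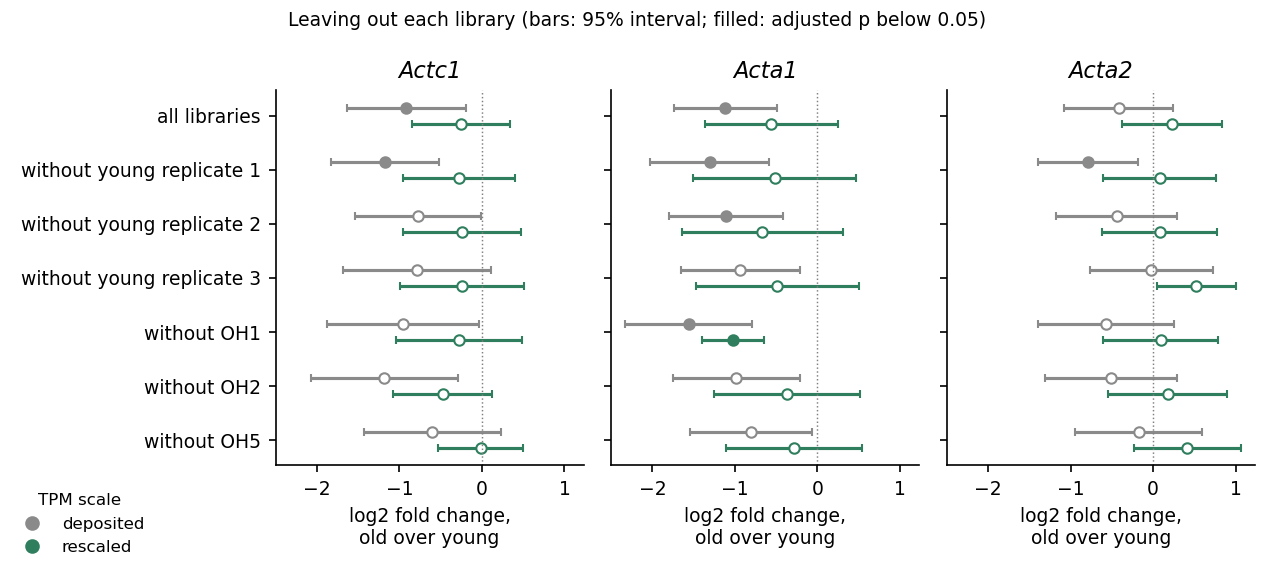
Log2 fold change (old over young) of each actin with all libraries and with each library left out, on the deposited and the rescaled scale. Bars are 95% intervals of limma, and filled points passed an adjusted p of 0.05; on the rescaled scale the only filled point is Acta1 without OH1, at -1.02.

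Shares within the summed TPM of the 3 actins do not change when a library is rescaled. Actc1 made up most of that sum, 87.8%, 89.3% and 84.0% in the young libraries and 81.3%, 89.4% and 85.4% in OH1, OH2 and OH5. Its share averaged 87.1% ± 2.72 over the young and 85.4% ± 4.06 over the old libraries (SD, n = 3), and an exact two-sided permutation test gave p = 0.7. Cardiac alpha actin transcripts thus dominated at both ages, and the ages overlapped.

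The Acta1 share was 6.26%, 4.93% and 5.98% in young and 7.997%, 2.67% and 4.29% in old. The highest and both of the lowest shares were old, and the means of 5.72% ± 0.698 and 4.98% ± 2.73 differed by less than the SD within old (exact two-sided permutation p = 0.7). The Acta2 share was 5.93%, 5.75% and 9.99% in young and 10.7%, 7.94% and 10.3% in old. OH1 and OH5 exceeded every young library, but OH2 lay below young replicate 3. The means were 7.22% ± 2.40 for young and 9.65% ± 1.496 for old (p = 0.2 by the same exact test). Adjusted over the 3 shares, the p values were 0.7 for Actc1, 0.7 for Acta1 and 0.6 for Acta2.

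As log2 ratios within a library, Acta2 to Actc1 averaged -3.64 ± 0.49 over the young and -3.16 ± 0.30 over the old libraries (SD, n = 3), a difference of 0.48 whose 9 old-to-young pairs ran from -0.42 to 1.03. The ratio was higher in all 3 old libraries than in young replicates 1 and 2, and it was higher in OH1 and OH5 than in young replicate 3. Acta1 to Acta2 was -0.29 ± 0.41 in young and -1.09 ± 0.60 in old, a difference of -0.79 with pairs from -1.65 to 0.32. Young ventricle thus held 0.815 Acta1 transcripts per Acta2 transcript as a geometric mean, and old ventricle 0.471. Acta1 to Actc1 differed least, at -3.93 ± 0.21 in young and -4.24 ± 0.86 in old, with pairs from -1.26 to 0.83. Exact two-sided permutation p values were 0.2, 0.2 and 0.6 for the 3 ratios in this order, and 0.3, 0.3 and 0.6 adjusted over them. With 3 against 3 libraries this test cannot give less than 0.1, so no share or ratio could have passed the threshold, and these p values do not show that the isoform balance was the same. The pairs given hold differences in either direction.

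**Figure D4:**
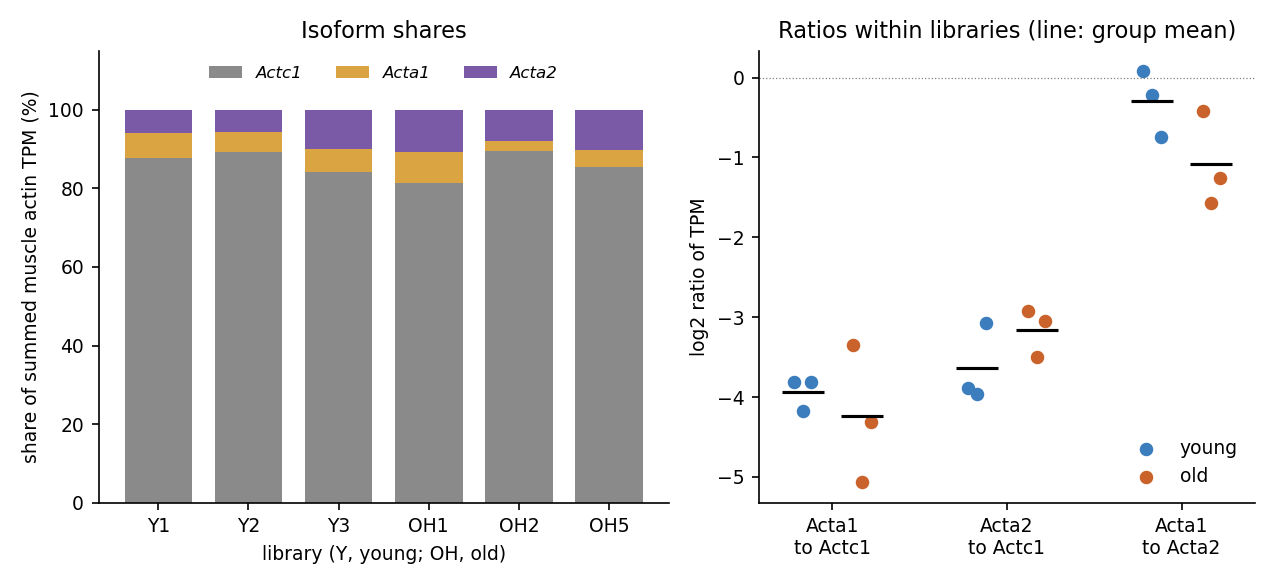
Left, percentage of the summed muscle actin TPM held by Actc1, Acta1 and Acta2 in each library (Y1 to Y3, young replicates; OH1, OH2 and OH5, old). Right, log2 ratios of TPM between pairs of the 3 genes, with points for libraries and lines for group means; Acta2 to Actc1 averages -3.64 in young and -3.16 in old, with overlapping libraries.

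The order of the 3 genes was compared within libraries over both ages. Actc1 exceeded Acta2 in 6 of 6 libraries, by 7.58-fold to 15.5-fold, and exceeded Acta1 in 6 of 6, by 10.2-fold to 33.5-fold. Both comparisons gave an exact two-sided permutation p of 0.0312 within libraries, the smallest value 6 pairs allow, and 0.0469 adjusted over 3 pairs. Acta2 exceeded Acta1 in 5 of 6 libraries, with ratios from 0.947 to 2.98 (exact permutation p = 0.0625, adjusted 0.0625), which did not pass the threshold. With a library in the other direction this test cannot give less than 0.0625, so it cannot decide whether these neighbours in the order differ. By mean TPM, Actc1 ranked 33rd of all 23976 genes, Acta2 524th and Acta1 956th.

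The summed TPM of the 3 genes was 221, 378 and 399 in the young libraries and 194, 240 and 112 in the old ones as deposited, 1.83-fold higher in young on average (exact two-sided permutation p = 0.2). After rescaling it was 3455, 3553 and 3786 in young and 3322, 3978 and 2204 in old, 1.14-fold higher in young (p = 0.6, the same exact test). OH5 had the lowest sum on both scales, and OH2 the highest after rescaling. Without OH5 the rescaled difference between old and young changed sign, to 52.0 TPM above young.

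The column names of the table carry a final _1 or _2 that the labels do not explain: OH1 and young replicates 1 and 3 have the former, and OH2, OH5 and young replicate 2 the latter. As deposited, the mean log2 value of Acta1 was lower in old within both suffixes. It differed by -0.22 among the columns ending in _1 and by -1.58 among those ending in _2. The mean of Acta2 likewise differed by -0.14 and -0.52. Among the columns ending in _1, OH1 lay between young replicates 1 and 3 for both genes. After rescaling the picture differed. Among the columns ending in _1, the rescaled log2 value of Acta1 was 0.26 higher in the 1 old library than in the mean of the 2 young ones. Among those ending in _2, it was 0.80 lower in old (-0.80, 2 old libraries against 1 young). After rescaling, the 2 suffixes thus gave opposite directions for Acta1, and its ratio to Actc1 likewise differed by 0.47 and -0.51. Mean rescaled Actc1 differed by -0.20 and -0.29 and mean rescaled Acta2 by 0.35 and 0.39, the same direction in both. Single libraries also went the other way. For Actc1, OH2 lay above young replicate 2 (3556 against 3173 TPM). For Acta2, OH1 lay below young replicate 3 (356 against 378 TPM). The ratio of Acta2 to Actc1 was higher in each old library than in every young library of the same suffix, by 0.56 and 0.68 on average. With 3 libraries per suffix these differences were not tested. With the suffix as a second term of the deposited-scale model, limma gave Actc1 a log2 fold change of -0.96 (adjusted p 0.0755) and Acta1 one of -0.90 (0.0648), so the calls were lost. The fold change of Actc1 stayed near that without the suffix (-0.91), whereas that of Acta1 moved towards 0, from -1.12.

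The genes whose rescaled log2 values ran most like each actin over the 6 libraries were sought among 3537 other genes whose mean TPM was 5 or more. Pearson's r is given as a description, since the points share library and age and the nearest of so many genes is always close. The nearest to Actc1 was ENSRNOG00000001804 (r = 0.99), the nearest to Acta1 was ENSRNOG00000019698 (r = 0.98) and the nearest to Acta2 was ENSRNOG00000021719 (r = 0.99). Their log2 fold changes after rescaling were -0.13, -0.04 and 0.09, and none passed the threshold (limma adjusted p 0.583, 0.821 and 0.744). An r above 0.9 was reached by 40 genes for Actc1 (1.13%), 15 for Acta1 (0.424%) and 31 for Acta2 (0.876%). These counts were not compared with what unrelated genes would give over 6 libraries. The table gives no symbol for these genes.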

How the data were processed

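Per the submitters' processing notes, Salmon and the genome build mRatBN7.2 were used. Salmon's version, annotation release and treatment of reads shared by genes were not given in the sources used here. Rattus rattus is the organism in the labels, but Wistar-Kyoto is a strain of Rattus norvegicus, the species of that build. TPM values were deposited by the authors in 1 column per library. The young columns have numbers that match the individual labels (2, 4 and 5). The numbers in the old columns do not all match the old labels (5, 11 and 12), so these columns were assigned to the old group only. Per the labels' protocols, instruments of more than 1 model were used, with no assignment of libraries to them.

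The members, lists and tests were chosen with earlier results of these data known. Gene symbols came from the selection rule. Of 32100 genes in a RefSeq table of Rattus rattus, 0 matched an identifier, so the lists of sarcomere partners, other actins, fetal program genes, regulators and cell type markers could not be read and are not reported. No actin sequence was used.

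Genes reaching 1 TPM in 3 or more libraries were tested with limma-trend (limma 3.58.1, R 4.3.3) on log2(value + 1) with age as the only term, Benjamini-Hochberg adjustment over all of them and a threshold of 0.05. The pseudocount of 1 understates changes of low genes on the deposited scale. Shares, ratios and sums were compared with exact permutation tests (SciPy 1.17.1). The limma step was tested on simulated data. Named genes were the 3 actins and the gene most correlated with each. Alternatives were pseudocounts of 0.1 and 10, other filters and scalings, a bound of 100 TPM, the column suffix as a term and leaving out each library. The exact test of each actin's own values was added after the data were seen.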

Additional observations from a re-analysis of the deposited data

How the results depend on the processing

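Across all genes, the deposited scale gave 4533 calls among 9502 tested genes (84 higher, 4449 lower in old). This count became 1 of 23976 genes without a filter. It was 3 of 18141 without a filter but with genes listed at 0 in all libraries left out. A filter at 10 TPM gave 607 of 1422 genes. The count was 581 under median-ratio and 574 under quantile scaling. It was 1385 with the column suffix as a term, and 388 to 8857 with 1 library left out. The rescaled count of 576 of 9487 genes (252 higher, 324 lower) became 6 of 23961, 334 of 18126 and 128 of 1407 under the same filters. It was 174 with the suffix, and 67 to 453 with 1 library left out. Stricter filters test fewer genes; otherwise the cause was not tested. Of 90 alternative limma values of the 3 actins, 66 had the same direction and the same side of the threshold, 20 no longer passed, 2 passed newly and 2 reversed. Those that reversed were Acta2 on the deposited scale, at 0.23 under median-ratio scaling and 0.27 under quantile normalization, both of which centre the genes. With median-ratio scaling of the deposited values, Actc1 was at -0.24 (limma adjusted p 0.579) and Acta1 at -0.49 (0.393). Over fits leaving out one library, the old minus young difference ran from -3.70 to 0.35 percentage points for the Actc1 share, from -2.25 to 0.42 for the Acta1 share, from 1.69 to 3.81 for the Acta2 share (highest without young replicate 3), from 0.32 to 0.77 for the log2 ratio of Acta2 to Actc1 (highest without young replicate 3), from -0.76 to 0.10 for the log2 ratio of Acta1 to Actc1, and from -834.9 to 52.0 TPM for the rescaled sum. No paired analysis was possible because the young and old rats were different animals, and the old columns carry no replicate number of the labels. Read depth is unknown, so what it limits cannot be stated.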
